A study of Mus musculus with 2 samples.

Results

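The genes described here are 9 genes of mast cells and basophils, Prss34, Cpa3, Mcpt8, Ms4a2, Fcer1a, Hdc, Kit, Gata2 and Srgn. They were taken by symbol from the deposited table, and all 9 had a row annotated with that symbol alone, out of 19871 genes with such a row. Gene expression had been measured in bone marrow derived macrophages of mice aged 8 weeks, grown in medium conditioned by L929 cells, fibroblasts that supply macrophage colony-stimulating factor. There was 1 array of control macrophages and 1 array of macrophages labelled beta-catenin deficient, and the comparison asks which genes differ when beta-catenin, an adhesion protein and carrier of the Wnt signal, is lacking. The sources used here do not give the strain, the deleted exons, the Cre line, the number of animals per culture or the time in culture.

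Mast cells and basophils are the blood lineage cells that carry the high-affinity IgE receptor and release granules of histamine, proteases and proteoglycan when IgE on their surface is bridged by antigen. Basophils mature in bone marrow under interleukin 3, whereas mast cells mature in tissues under the KIT ligand. GATA factors and MITF drive many of their genes. Macrophages are not known for the granule proteases or the alpha and beta chains of the IgE receptor, but they share serglycin, the receptor's gamma chain and much of the signalling machinery.

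Every value is an RMA value on the log2 scale, and every difference is the array labelled deficient minus control, so that 1 stands for a 2-fold difference. With 1 array per group there was no replicate, no error and no test, and a direction is a statement about these 2 arrays. In RNA from a whole culture, more cells of a type and more RNA per cell cannot be told apart. Ctnnb1, the gene of beta-catenin, stood at 11.3 in control and 11.4 in the array labelled deficient, a difference of 0.15, so the level did not bear out the label. Probes outside deleted exons would not show the deletion, and each direction below rests on the label. The table's values ran from 2.12 to 14.1. Of 14 measured macrophage markers, 12 lay within 1.5-fold between the arrays, with a median difference of 0.10, from Fcgr1 (0.78) down to the scavenger receptor Marco (-0.58). The summed linear values of these markers were 52894 in control and 56669 in the array labelled deficient.

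The granule protease genes had the largest positive differences of the 9. Of the IgE receptor chains, the beta chain differed little and the alpha chain was lower as deposited. With quantile normalization their differences were 0.53 and -0.11. Prss34, Cpa3 and Mcpt8 were 4.95-fold, 3.95-fold and 1.89-fold higher in the array labelled deficient, while Ms4a2, Hdc and Kit differed by 0.11 or less on the log2 scale and Fcer1a was lower by 0.45. In all, 2 of 9 genes were at least 2-fold higher, against 1.77% of all genes, and 0 of 9 were at least 2-fold lower, against 2.34%. At 1.5-fold, 3 of 9 were higher against 4.98% of all genes, and 0 were lower against 13.0%. The median difference was 0.32 over the 9 genes, which is the value of Srgn, and -0.15 over all genes. The 9 genes were chosen with earlier results of these data known, so these counts and medians do not test for an excess. These counts use no filter on level, since a filter on the higher value would keep a gene through the array where it is high. With a floor of 7.28, the table's median value, on the mean of both arrays, 4 of the 9 genes were left and 0 of them were at least 2-fold higher, since the means of Prss34 (7.26) and Cpa3 (6.67) lay below it.

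The sequences upstream of the 3 highest genes and of both IgE receptor chains are shown because the 3 protease genes had the largest differences and the receptor genes differed by less than 1.5-fold. Each is the 250 bases before the start site in RefSeq (GRCm38.p6), 5′ to 3′ on the gene's strand. Capitals mark GATA motifs, searched as AGATAA or AGATAG or TGATAA or TGATAG on both strands. The windows lie at chr17:25298144-25298393 (Prss34, plus strand), chr3:20242182-20242431 (Cpa3, minus), chr14:56085198-56085447 (Mcpt8, minus), chr1:173227230-173227479 (Fcer1a, minus) and chr19:11623720-11623969 (Ms4a2, minus).
Prss34: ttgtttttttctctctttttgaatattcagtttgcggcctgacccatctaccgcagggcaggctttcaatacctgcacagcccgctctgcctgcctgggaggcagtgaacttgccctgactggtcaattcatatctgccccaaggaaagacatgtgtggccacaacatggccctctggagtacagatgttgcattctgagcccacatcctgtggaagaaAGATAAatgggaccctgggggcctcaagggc
Cpa3: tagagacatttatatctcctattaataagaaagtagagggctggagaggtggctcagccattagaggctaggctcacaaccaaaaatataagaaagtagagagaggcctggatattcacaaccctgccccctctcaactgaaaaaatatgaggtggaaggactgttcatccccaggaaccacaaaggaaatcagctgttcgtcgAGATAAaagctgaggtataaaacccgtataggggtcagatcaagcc
Mcpt8: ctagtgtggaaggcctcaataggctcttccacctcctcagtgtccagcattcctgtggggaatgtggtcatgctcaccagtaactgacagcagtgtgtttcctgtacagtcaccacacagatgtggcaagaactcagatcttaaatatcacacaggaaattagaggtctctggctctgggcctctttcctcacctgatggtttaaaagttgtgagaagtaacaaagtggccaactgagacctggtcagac
Fcer1a: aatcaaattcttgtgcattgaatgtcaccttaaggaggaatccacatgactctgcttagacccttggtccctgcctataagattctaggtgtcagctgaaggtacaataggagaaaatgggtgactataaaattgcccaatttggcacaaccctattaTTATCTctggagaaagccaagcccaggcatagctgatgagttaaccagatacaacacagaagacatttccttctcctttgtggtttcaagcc
Ms4a2: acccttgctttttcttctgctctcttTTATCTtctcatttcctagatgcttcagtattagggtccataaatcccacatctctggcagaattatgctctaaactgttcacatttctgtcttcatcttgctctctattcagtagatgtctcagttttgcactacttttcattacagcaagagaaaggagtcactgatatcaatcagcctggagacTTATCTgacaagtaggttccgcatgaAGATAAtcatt

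Prss34 and Cpa3 each held 1 GATA motif close to the start, with its leading base 31 and 46 bases upstream. Mcpt8 held none in this window. Ms4a2 held 3, at 224, 37 and 11 bases, so a GATA motif close to the start was not particular to Prss34 and Cpa3. Fcer1a held 1 at 92 bases. Hdc held 1 at 221 bases. In all, 5 of the 12 windows of the 9 genes held a GATA motif, each in a different gene, and 26.5% of the 32851 windows of all genes did. The MITF-type E-box (CATGTG or CACGTG, both strands) was in 2 of the 12, those of Prss34 and Fcer1a, against 17.6% of all windows. The TCF/LEF motif through which beta-catenin acts (CTTTGAA or CTTTGAT or CTTTGTA or CTTTGTT, both strands) was in 2 of the 12, Mcpt8 at 31 bases and Hdc at 119 bases, against 14.8%. A match is only a match of letters, and a link between motifs and differences was not tested. RefSeq gave 2 start sites each for Kit, Gata2 and Srgn, and none of these windows held any of the 3 motifs.

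Prss34 encodes a tryptase-like serine protease of basophil granules (transcript cluster 10442762). Its value was 6.11 in control and 8.41 in the array labelled deficient, a difference of 2.31. This was the 26th highest difference of 19871 genes. Among 3173 genes of like mean level (within 0.5), the median difference was -0.11 and 2.71% were at least 2-fold higher.

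Cpa3 encodes carboxypeptidase A3, a granule enzyme of mast cells and basophils that trims peptides from the C terminus (transcript cluster 10497451). Its value was 5.68 in control and 7.66 in the other array, a difference of 1.98, the 46th highest. At its level 1.51% of 3847 genes were at least 2-fold higher, and their median difference was -0.15.

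Mcpt8 encodes mast cell protease 8, a granzyme-like protease that marks mouse basophils despite its name (transcript cluster 10420254). Its value was 7.04 in control and 7.96 in the array labelled deficient, a difference of 0.92, just under 2-fold. It passed 2-fold when a loess curve of difference on level was subtracted (1.04) and stayed under it after centring (0.99) and quantile normalization (0.998). Mcpt8 lies in a cluster of related protease genes, and probes of related genes may share signal, which was not tested. It had 1 transcript cluster and was in 0 rows annotated with several symbols.

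**Figure D1:**
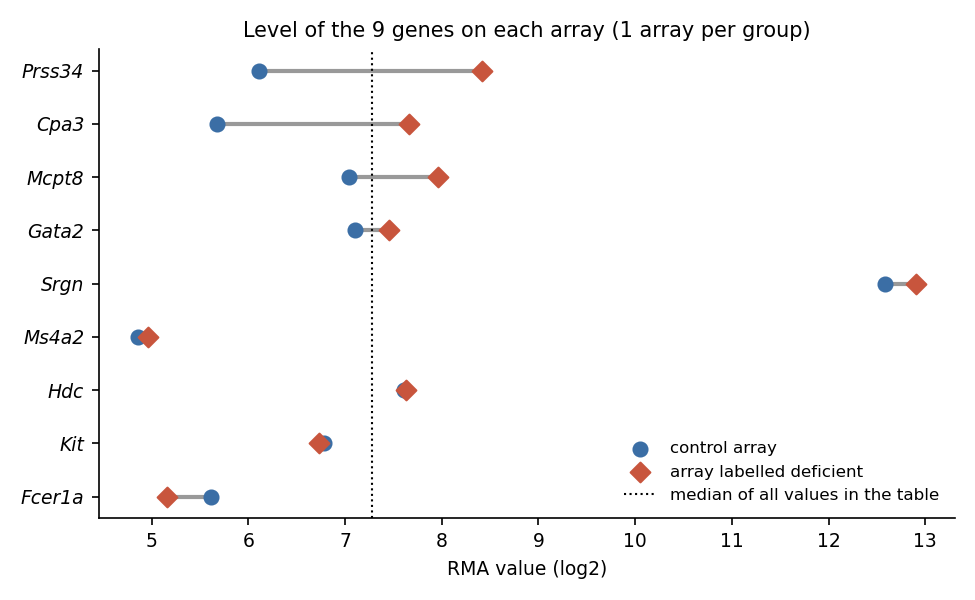
RMA value (log2, horizontal axis) of each of the 9 genes in the control array (circles) and the array labelled deficient (diamonds), sorted by difference, with 1 array per group and no error bars. Prss34, Cpa3, Mcpt8 and Gata2 cross the dotted line, the median value of the table (7.28), while Ms4a2, Kit and Fcer1a lie below it in both arrays.

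The high-affinity IgE receptor has an alpha chain that binds IgE, a beta chain that amplifies the signal and a gamma chain that carries it. Fcer1a, the alpha chain (transcript cluster 10360338), had a value of 5.61 in control and 5.16 in the array labelled deficient, a difference of -0.45. At that level the arrays differed as a whole: the median over 2678 genes of like level was -0.28, and Fcer1a was -0.17 from it. Ms4a2, the beta chain (transcript cluster 10466216), had values of 4.85 and 4.96, a difference of 0.11, against a median of -0.36 over 1896 genes of like level. Both lay below the table's median value of 7.28 in both arrays, a dim range. Fcer1a was at -0.11 and Ms4a2 at 0.53 after quantile normalization, and at -0.12 and 0.51 after loess. Fcer1g, the gamma chain that macrophage Fc receptors also use, stood at 13.19 and 13.15, and its difference of -0.03 turned positive under centring, quantile normalization and loess.

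Kit, the receptor tyrosine kinase for stem cell factor that mast cells and early progenitors carry (transcript cluster 10522530), had values of 6.78 and 6.73. Its difference of -0.05 was positive after centring (0.02), quantile normalization (0.08) and loess (0.10), so it has no direction here. Gata2, a transcription factor of progenitors, mast cells and basophils (transcript cluster 10539873), had values of 7.11 and 7.46, a difference of 0.35. Under the scalings its difference ranged up to 0.47, and 89.4% of all genes had a lower difference. Both genes lay within 1.5-fold between the arrays.

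Hdc, histidine decarboxylase, which makes histamine (transcript cluster 10487238), had nearly the same value in both arrays, 7.61 and 7.63, a difference of 0.02. Srgn, serglycin, the proteoglycan core that binds proteases and histamine in granules (transcript cluster 10369615), had values of 12.6 and 12.9, a difference of 0.32. Only Hdc and Srgn lay above the table's median in both arrays. Serglycin is also made by macrophages, so its level does not mark mast cells or basophils in this culture.

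The arrays differed with level over all genes, which bears on the dim members. The median difference was -0.43 over 1366 genes with a mean level from 4 to 5, where Ms4a2 lay, and -0.08 over 2906 genes from 8 to 9. The median over all genes, -0.15 as deposited, was -0.00 after quantile normalization. Relative to the unscaled median, Prss34 was 2.46 higher, Cpa3 2.13, Mcpt8 1.07, Gata2 0.50, Srgn 0.47, Ms4a2 0.26, Hdc 0.17 and Kit 0.10, and Fcer1a was at -0.30. Ms4a2 moved most among the 9 under scaling, from 0.11 to 0.53 with quantile normalization. Of all genes at least 2-fold apart, 43.1% were higher as deposited, 54.2% after centring, 73.3% after quantile normalization and 75.7% after loess.

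**Figure D2:**
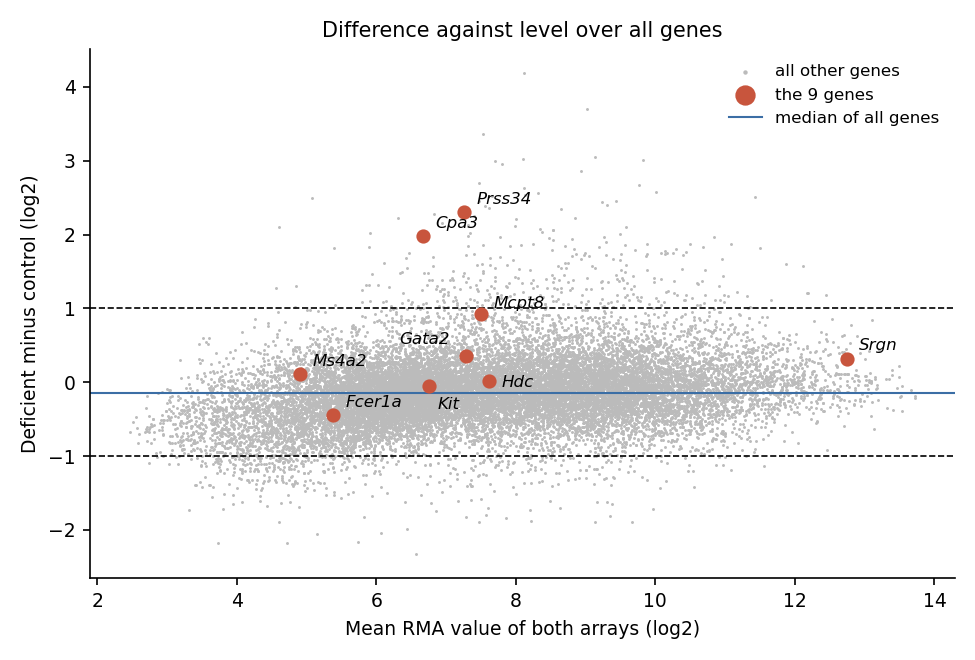
Difference between the arrays (log2, vertical axis) against the mean of both values (log2, horizontal axis) for 19871 genes, with the 9 genes in large points, dashed lines at 2-fold and a solid line at the median of all genes (-0.15). Prss34 and Cpa3 lie above the upper dashed line, Mcpt8 just below it, and Fcer1a and Ms4a2 lie in the dim range where the cloud sinks below 0.

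**Figure D3:**
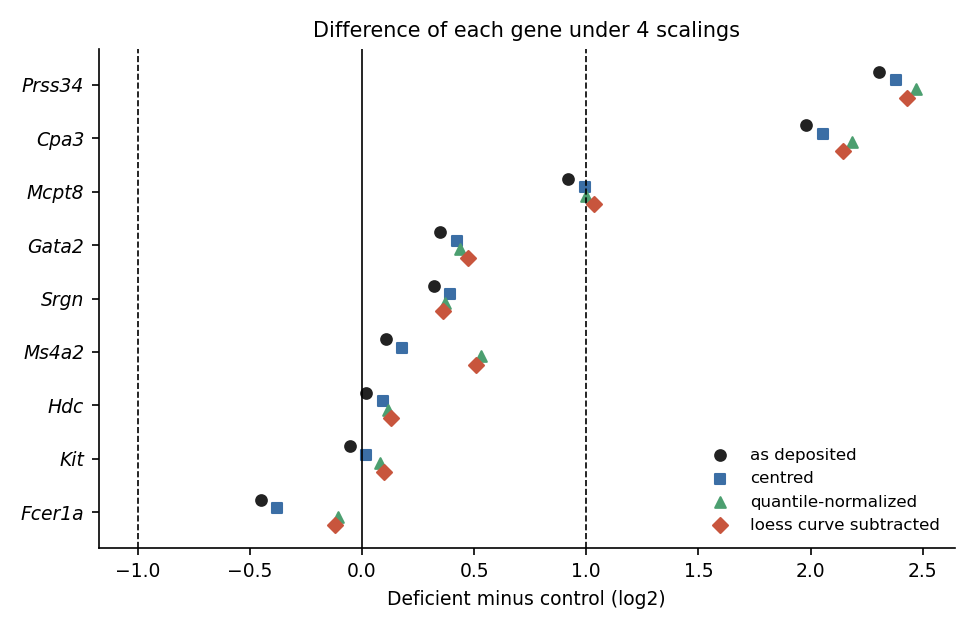
Difference of each gene (log2, horizontal axis) as deposited and under 3 scalings, with dashed lines at 2-fold. Prss34 stays between 2.31 and 2.47 and Cpa3 between 1.98 and 2.19, Mcpt8 passes 1 only with loess, and Kit lies on both sides of 0.

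Other mast cell granule proteases were near level, with exceptions in both directions. Of 11 measured, 9 lay within 1.5-fold, 1 was higher and 1 lower by more than that, against 4.98% and 13.0% of all genes. Their median, -0.03, turned positive under centring (0.04), quantile normalization (0.21) and loess (0.22). Ctsg, cathepsin G, which neutrophil precursors also make, was highest, from 6.99 to 8.41, a difference of 1.42. Gzmb, granzyme B, followed at 0.47. Mcpt4, a chymase of connective tissue mast cells, was lowest, from 5.30 to 4.26, a difference of -1.04 that shrank to -0.60 with quantile normalization. Cma1, another mast cell chymase, differed by -0.52. The tryptase genes Tpsb2 (0.00) and Tpsab1 (-0.22) showed little difference, and Tpsab1 changed sign under quantile normalization and loess. Of these 11 genes, 10 lay below the table's median in both arrays.

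Receptors of mast cells and basophils beside the members included several higher genes. Of 16, 3 were higher and 0 lower by 1.5-fold or more, against 4.98% and 13.0% of all genes. Their median was -0.03 as deposited and 0.31 after quantile normalization. Of the 16, 8 lay below the table's median in both arrays, Enpp3 and Cd200r3 among them. Enpp3, the ectoenzyme CD203c of basophils, was highest, from 5.60 to 7.08, a difference of 1.48. Cd200r3, an activating receptor of basophils and mast cells, went from 4.60 to 5.42, a difference of 0.81. Csf2rb, the beta chain shared by the receptors for interleukin 3, interleukin 5 and GM-CSF, was 0.68 higher, and macrophages express it as well. The lowest were Cd69 (-0.58), an activation marker of many leukocytes, and Ptgdr2 (-0.46), the prostaglandin D2 receptor of basophils and eosinophils.

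Signalling genes below the receptors were close to level. Below the IgE receptor, 23 of 24 genes lay within 1.5-fold, 0 were higher and 1 was lower, with a median of -0.12. Of all genes, 4.98% were higher and 13.0% lower by that size. After centring or loess 1 of the 24 was higher and 0 lower, and after quantile normalization 1 was higher and 1 lower. The adaptor Lat (0.56) and the kinase Fyn (0.31) were highest, and the inhibitory phosphatase Inpp5d (-0.61) and the adaptor Lcp2 (-0.56) lowest. Of 18 genes of KIT signalling, 17 lay within 1.5-fold and the median was -0.10. Kitl, the KIT ligand that stromal cells make, was the exception, from 7.70 to 8.73, a difference of 1.04. The next was the kinase Src (0.32), and the lowest were the ubiquitin ligase Cbl (-0.57) and the adaptor Grb2 (-0.44).

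Lineage transcription factors beside Gata2 went both ways. By 1.5-fold or more, 3 of 18 were higher and 2 lower, against 4.98% and 13.0% of all genes, and the median was 0.02. Myb, a factor of immature blood cells (from 6.90 to 7.74), and Lmo2, a partner of GATA factors (from 10.3 to 11.1), were highest, with differences of 0.84 and 0.81. Mitf, a mast cell factor that macrophages and osteoclasts also use, was the third at least 1.5-fold higher, at 0.70, and its lowest transcript cluster gave 0.29. Cebpa, which favours basophils over mast cells and is needed in the myeloid line, was lowest at -0.71, followed by the GATA cofactor Zfpm1 at -0.59. Gata1 was level at 6.41 and 6.42.

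Genes that handle histamine and make lipid mediators were mostly level as well, with 14 of 15 within 1.5-fold, 0 higher and 1 lower (median -0.12). The shares of all genes at that size were 4.98% higher and 13.0% lower. After centring, quantile normalization or loess, 1 of the 15 was higher and 1 lower. Hpgds, which makes prostaglandin D2, was highest at 0.58, followed by Slc18a2, the vesicular transporter that loads histamine, at 0.01. Hnmt, which breaks down histamine, was lowest, from 8.18 to 7.38, a difference of -0.79, and leukotriene C4 synthase Ltc4s followed at -0.56. Of 15 genes that build the sugar chains of proteoglycans such as serglycin, 2 were higher and 0 lower by 1.5-fold or more (median 0.10). Chst15, a chondroitin sulfotransferase, was highest, from 7.89 to 8.95, a difference of 1.06, and Ext2 followed at 0.67. The lowest were Chst12 (-0.50) and B4galt7 (-0.26).

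Of 13 genes of granule exocytosis, 2 were higher and 1 lower by 1.5-fold or more, against 4.98% and 13.0% of all genes. Their median was -0.10 as deposited and 0.03 after loess. Rab27b, a GTPase of secretory granules, was highest, from 5.70 to 6.68, a difference of 0.98, followed by the syntaxin Stx4a at 0.80. Vamp8 (-0.67) and Stxbp2 (-0.35), both parts of the fusion machinery, were lowest. Of 13 cytokine genes of these cells, 4 were higher and 2 lower by 1.5-fold or more (median 0.11). The median of all 13 was 0.37 after quantile normalization, and 8 of them lay below the table's median in both arrays. Vegfa (1.38) and Csf1 (1.18), which many cell types make, were highest, while Il13 (-0.73) and Tnf (-0.68) were lowest. Il4, the signature cytokine of basophils, stood at 6.55 and 6.40, and its difference of -0.15 changed sign under quantile normalization and loess.

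Markers of other bone marrow cells differed between the same arrays. Among all genes, 4.98% were higher and 13.0% lower by 1.5-fold or more. Counting differences of 1.5-fold or more, 5 of 8 eosinophil markers were higher and 0 lower (median 0.76), from the granule protein Prg2 (6.32 to 8.31, a difference of 1.99) down to Il5ra (-0.40, with no stable sign). Their summed linear values were 846 in control and 1432 in the array labelled deficient. Of 15 neutrophil granule markers, Ctsg among them, 13 were higher by that size and 0 lower (median 1.30, summed values 9382 and 20968), from Retnlg (2.57) down to Camp (-0.43). Of 14 stromal markers, 12 were higher and 0 lower (median 1.19, summed values 9350 and 21552), from Cxcl12 (2.87) to Thy1 (0.18). Of 6 megakaryocyte markers, 4 were higher and 0 lower (median 0.73, summed values 5582 and 12927), from Ppbp (2.51) to Pf4 (0.46). Ppbp (10.2 to 12.7) and Pf4 (11.8 to 12.3) were the brightest of the 6 and make up most of these sums. The part of these other cells in the differences of Prss34, Cpa3 and Mcpt8 was not tested.

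Progenitor, erythroid, lymphoid and dendritic markers went different ways, beside the same shares of all genes (4.98% higher and 13.0% lower by 1.5-fold or more). Of 13 stem and progenitor markers, 3 were higher and 0 lower by 1.5-fold or more (median 0.01), from Angpt1 (1.32) to Mecom (-0.56). By the same size, 6 of 9 erythroid markers were lower and 0 higher (median -0.63, with 3 lower after quantile normalization or loess), from Car2 (0.15) to Car1 (-1.63). Of 9 T and NK cell markers 6 were lower and 1 higher (median -0.71), from Nkg7 (1.09) to Cd5 (-1.21), but only 2 were at least 1.5-fold lower after quantile normalization or loess. For 7 B cell markers the median was 0.32, with 2 higher and 0 lower, from Ms4a1 (1.08) to Pax5 (-0.12, with no stable sign). For 10 dendritic cell markers it was -0.29, with 2 higher and 3 lower, from Itgax (1.53) to Clec9a (-0.90), and 0 were lower after quantile normalization.

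**Figure D4:**
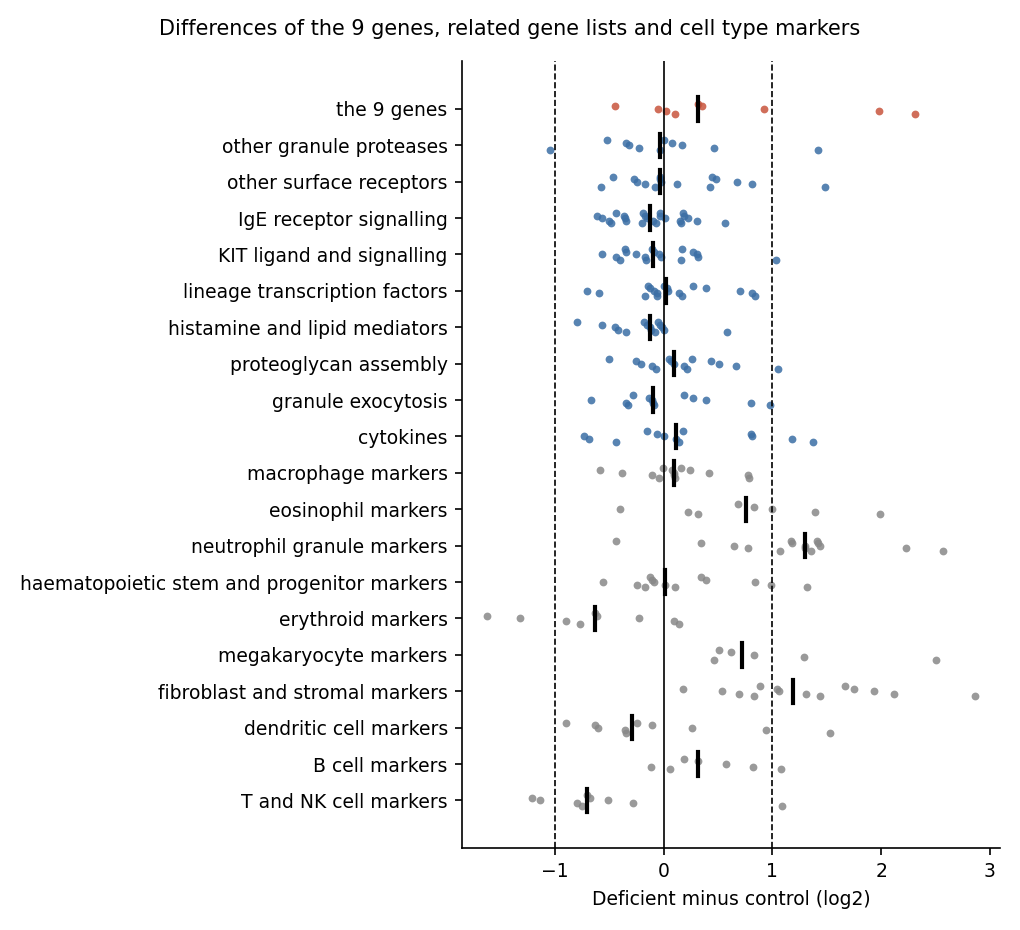
Difference between the arrays (log2, horizontal axis) for each measured gene of the 9 genes (top line), of 9 related gene lists and of 10 cell type marker lists, with a black bar at each list's median and dashed lines at 2-fold. The medians of the related lists lie between -0.12 and 0.11, and those of the neutrophil granule and stromal markers at 1.30 and 1.19.

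The chromosomal neighbours of the 9 genes went both ways. Of 54 genes with a value, 3 on each side of each member in RefSeq's order, 3 were at least 2-fold higher and 1 at least 2-fold lower, with a median of -0.09. Over all genes the shares were 1.77% and 2.34%, and the median was -0.15. Prss34 lies beside the protease genes Prss28 (-0.03), Prss29 (0.08) and Tpsab1 (-0.22), against its own 2.31, and the signs of Prss28 and Tpsab1 changed with scaling. Cpa3 lies between the carboxypeptidase gene Cpb1 (-0.06) and Gyg (-0.02), both without a stable sign, and beyond Gyg lie Hltf (-0.84) and Hps3 (-0.62). Mcpt8 lies between Mcpt4 (-1.04) and Ctsg (1.42) in a cluster that also holds the granzyme genes Gzme (0.69) and Gzmd (-0.74), close copies whose probes may share signal.

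Ms4a2 lies in the MS4A cluster of membrane protein genes, where the 4 MS4A genes among its neighbours had larger differences as deposited, although Ms4a2 (0.53) was above Ms4a6d (0.33) after quantile normalization. Ms4a4d went from 5.96 to 7.66, a difference of 1.70, Ms4a6b was 0.66 higher, Ms4a3, a gene of granulocyte and monocyte progenitors, 0.55, and Ms4a6d 0.31. The next genes on the other side, Oosp2 (-0.07, with no stable sign) and Oosp1 (-0.78), are of another family. Kit lies between Pdgfra, a stromal receptor gene that went from 6.92 to 9.04, a difference of 2.12, and the endothelial receptor gene Kdr at 0.06.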

How the data were processed

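Total RNA of 2 cultures was labelled with biotin and hybridised to Affymetrix 1.0 ST arrays, 1 per group. The deposited table holds log2 values of 25917 transcript clusters, made with RMA per the submitters' processing notes; the sources used here do not give its version, its settings or whether both columns came from 1 run, and the log2 scale was read from the values. Rows were named from GEO's platform annotation: 21632 had a single symbol, 1560 several and 2725 none. For each symbol the row with the highest mean of both columns was kept (each of the 9 genes had 1 row). RMA values carry no detection call, and the number of arrays limits the precision.

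Differences were computed in Python 3.11.15 with pandas 2.3.3, numpy 2.4.6 and statsmodels 0.14.6, with 2-fold and 1.5-fold as sizes and no test. The script was tested on simulated data. Alternatives were a floor at the median of all values (7.28) on the higher value or the mean, centring, quantile normalization, a loess curve (span 0.3) and another transcript cluster per symbol. The 9 genes and the lists were chosen with earlier results of these data known; neighbours, motifs and like-level genes were added after the values were seen. Named genes were the 9, Ctnnb1, the 2 highest and 2 lowest of each related list and any gene there at least 2-fold apart, and the highest and lowest of each marker list. Others named (Fcer1g, Gata1, Il4, Tpsb2, Tpsab1, Csf2rb, Mitf and all chromosomal neighbours) were chosen after their values were seen. Listed genes without a row of their own are not analysed here. Promoter windows came from RefSeq (GRCm38.p6).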

Additional observations from a re-analysis of the deposited data

How the results depend on the processing

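The differences of single members kept their sign and their side of 2-fold in 41 of 45 recomputed values. These include the settings that change the transcript cluster, which could not move any member because each of the 9 genes had 1 row. The exceptions were Kit, which was positive under 3 scalings, and Mcpt8, which passed 2-fold with loess. With the floor on the mean of both values only 4 of the 9 genes were left, 0 were at least 2-fold higher and 1 was at least 1.5-fold higher, because Prss34 (mean 7.26) and Cpa3 (6.67) lay below 7.28. With the floor on the higher value 6 were left and their median was 0.64, against -0.08 over all genes that passed this floor. Of these 6, 4 passed only through the array labelled deficient, which raises their median by construction. Over all genes, those at least 2-fold lower numbered 465 as deposited, 169 with the floor on the higher value, 144 with the floor on the mean, 173 after quantile normalization and 158 after loess. Genes at least 1.5-fold lower numbered 2590, and 939, 851, 1105 and 1021 in the same order. Genes at least 1.5-fold higher numbered 990, with 1596 after quantile normalization and 1665 after loess. Floors remove dim genes, and quantile normalization and loess move the median of all genes, by construction. No replicate could be left out, and a depth or detection limit cannot be given for these values. No paired analysis was possible because each group has 1 array.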
